A study of Homo sapiens with 2 samples.

Results

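Genes of cholesterol synthesis, of its control by the sterol regulatory element-binding proteins (SREBPs) and of cholesterol movement were followed in A549, a human cell line established from a lung adenocarcinoma. They were chosen by symbol from a list of 32 genes, and all 32 were found, each on 1 row, among 24462 distinct symbols. A mean of at least 30 counts over the libraries was required for a comparison, and 31 of the 32 met it, beside 11771 symbols in all. INSIG2 did not. The series held 2 libraries of 3' end counts, 1 from A549 cells transfected with ADGRF4 siRNAs and 1 from A549 cells transfected with control siRNAs. ADGRF4 is an adhesion G protein-coupled receptor, and the study asked how its silencing alters gene expression. Both cultures were grown in serum, and nothing in the labels separates them other than the siRNA. No sequence or number of the siRNAs, no time after transfection and no replicate culture is given there.

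Cells make cholesterol from acetyl-CoA through mevalonate, isoprenoids, squalene and lanosterol. When sterols in the endoplasmic reticulum run low, the escort protein SCAP carries SREBPs to the Golgi, where proteases release the part that enters the nucleus and switches on the genes of the pathway. When sterols are plentiful, INSIG proteins hold the SCAP complex back, and LXR receptors raise genes that export cholesterol. Because they share this switch, the enzymes of the pathway are known to move together when sterol supply changes.

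The library of ADGRF4 siRNA held 9825320 counts and that of control siRNA 10396047, and the 32 genes took 0.169% of the counts after ADGRF4 siRNA and 0.179% after control siRNA. ADGRF4 had 1 count after ADGRF4 siRNA and 3 after control siRNA, no more than the 3 counts that cannot be told from 0, so the silenced gene does not check the labels. Of the 12 lung epithelial and A549 markers, 8 were compared by the limits given below, and 2 were higher, 4 lower and 2 between (KRT19 and NQO1). KRT18 (1.58-fold) and KRT7 (2.66-fold) were higher, and AKR1B10 (4.86-fold), ALDH1A1 (2.34-fold), EPCAM (1.68-fold) and KRT8 (1.56-fold) were lower. The part of these marker differences in the results below was not tested. The surfactant gene SFTPB had 0 counts in both, and SFTPC and NKX2-1, which mark alveolar cells, had at most 6. Blood cell markers summed to 32 counts after ADGRF4 siRNA and 52 after control siRNA, and endothelial and fibroblast markers to 54 after ADGRF4 siRNA and 50 after control siRNA. With 1 library per treatment there is no replicate check, so no test was made and no p-value is given. Levels below are CPM, that is, counts scaled to the size of each library after TMM normalisation, which sets the bulk of genes level between libraries. Folds are ratios of these levels, and the range after a fold is its exact 95% interval, which covers counting error only. Genes are called higher or lower by size alone, at 1.5-fold on the log2 scale of CPM + 1.

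The cholesterol genes did not shift together. After ADGRF4 siRNA, 5 of the 31 (16.1%) passed the limit as higher and 8 (25.8%) as lower, and 18 lay between. Of all compared symbols, 21.1% were higher and 22.3% lower by the same limit, so both shares were near the background. Scaling by library totals gave 4 higher and 9 lower cholesterol genes, and 1898 higher and 3265 lower among all compared symbols, against 2483 higher and 2624 lower with TMM. The median log2 ratio of the 31 genes was 0.0062, against -0.016 for all compared symbols. Their ratios ran from -1.38 to 1.07, with an SD over genes of 0.64 against 0.77 for all compared symbols. At 2-fold, 4 genes were lower (HMGCS1, IDI1, CYP51A1 and SREBF1) and 1 was higher (NSDHL), where the shares of all compared symbols were 10.4% and 7.84%. Summed over the 32 genes, the level was 1776 CPM after ADGRF4 siRNA and 1700 CPM after control siRNA. Without ACAT2 and FDPS, whose counts can hold reads of overlapping genes, the direction turned, with 1309 CPM after ADGRF4 siRNA and 1382 CPM after control siRNA.

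**Figure D1:**
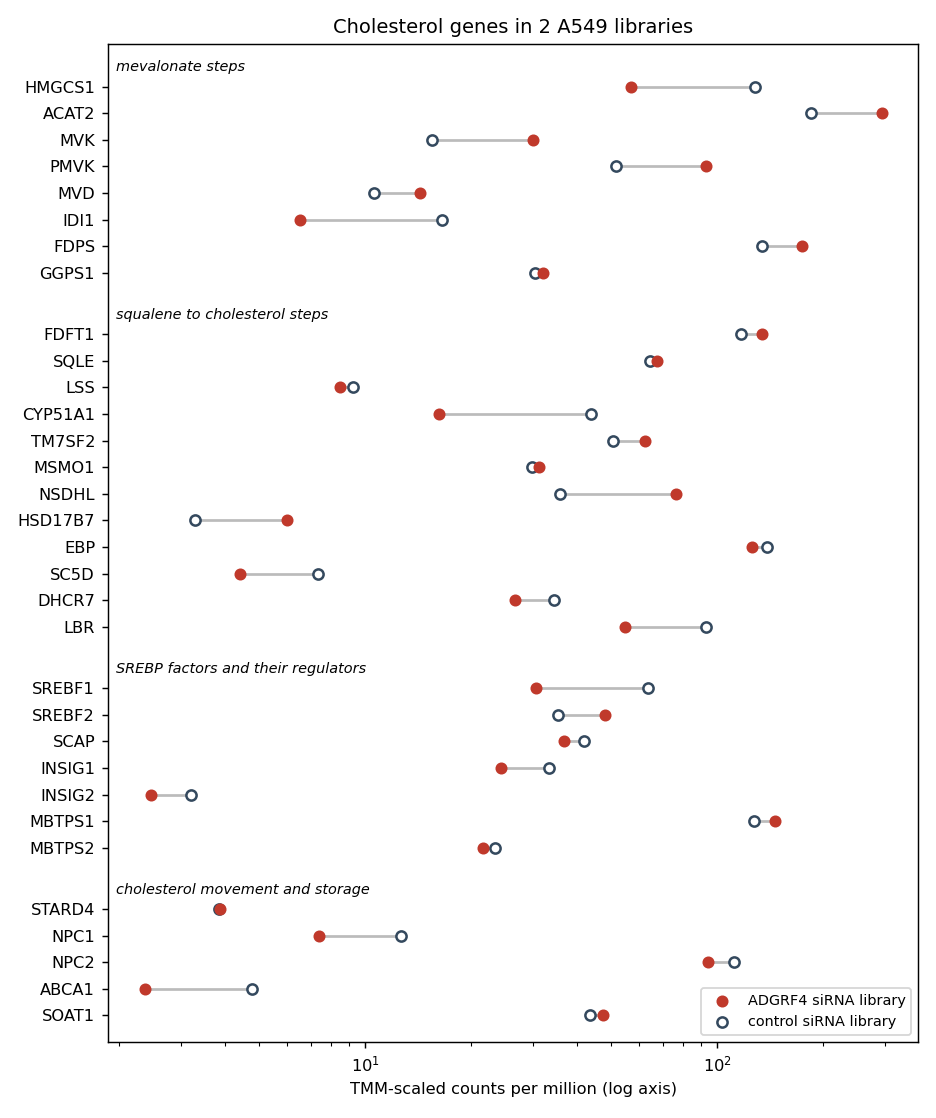
Level of each of the 32 genes, in TMM-scaled CPM on a log axis, in the ADGRF4 siRNA library (filled) and the control siRNA library (open), ordered by role. The widest gaps are those of CYP51A1 (16.2 CPM after ADGRF4 siRNA, 43.7 CPM after control siRNA), IDI1 (6.54 CPM after ADGRF4 siRNA, 16.5 CPM after control siRNA) and HMGCS1 (56.9 CPM after ADGRF4 siRNA, 128 CPM after control siRNA), where the ADGRF4 siRNA library is lower, and of NSDHL (76.3 CPM after ADGRF4 siRNA, 35.7 CPM after control siRNA), where it is higher.

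In the mevalonate part of the pathway, neighbouring steps differed in opposite directions, with limits on the 3 higher genes. ACAT2 can hold reads of an overlapping gene. MVK and PMVK did not pass the limit relative to symbols of like 3' base composition, as given below. ACAT2, the cytosolic thiolase that joins acetyl-CoA units, had 2731 counts after ADGRF4 siRNA and 2017 after control siRNA and was 1.59-fold higher (1.5 to 1.68). HMGCS1, which makes HMG-CoA from the product of ACAT2, had 531 counts after ADGRF4 siRNA and 1396 after control siRNA and was 2.24-fold lower (2.03 to 2.48). The kinases that act on mevalonate and then on phosphomevalonate were higher. MVK had 279 and 169 counts in the ADGRF4 siRNA and control siRNA libraries (1.94-fold higher, 1.59 to 2.36), and PMVK had 868 counts after ADGRF4 siRNA and 565 after control siRNA (1.80-fold higher, 1.62 to 2.01). The decarboxylase MVD, with 133 counts after ADGRF4 siRNA and 116 after control siRNA, lay between the limits at a log2 ratio of 0.40. IDI1, the isomerase of isopentenyl diphosphate, gave 61 counts after ADGRF4 siRNA and 181 after control siRNA, which was 2.53-fold lower (1.88 to 3.44). The prenyl diphosphate synthases FDPS and GGPS1, which supply farnesyl and geranylgeranyl groups, lay between the limits. FDPS had 1624 counts after ADGRF4 siRNA and 1461 after control siRNA, a log2 ratio of 0.38, and GGPS1 had 298 after ADGRF4 siRNA and 331 after control siRNA, a log2 ratio of 0.08.

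Summed, these 8 genes stood at 699 CPM after ADGRF4 siRNA and 570 CPM after control siRNA, 1.23-fold higher (1.19 to 1.27). ACAT2 held 293 CPM of the sum after ADGRF4 siRNA and 184 CPM of that after control siRNA, and FDPS held 174 CPM after ADGRF4 siRNA and 133 CPM after control siRNA. The other 6 genes summed to 233 CPM after ADGRF4 siRNA and 252 CPM after control siRNA, 1.08-fold lower (1.02 to 1.15). Of the 8, 3 were higher (37.5%) and 2 lower (25%), beside 21.1% and 22.3% of all compared symbols. Their median log2 ratio was 0.39. Centring on 3' GC takes a ratio relative to the median of symbols with a like share of G and C in their final 300 transcript bases. After it, HMGCS1 and IDI1 were lower, and 1 gene was higher, ACAT2, whose counts can hold reads of an overlapping gene. MVK (0.20) and PMVK (0.26) no longer passed the limit. The median was then 0.045, and the ratios of MVD (-0.44) and FDPS (-0.11) changed sign.

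No step from farnesyl diphosphate to lanosterol passed the limit. FDFT1, squalene synthase, had 1249 counts after ADGRF4 siRNA and 1277 after control siRNA, a log2 ratio of 0.20. SQLE, the squalene epoxidase that limits the rate of the late pathway, had 629 counts after ADGRF4 siRNA and 704 after control siRNA and a log2 ratio of 0.07, with an interval of the fold from 0.940 to 1.17. LSS, which closes the rings of lanosterol, had 79 counts after ADGRF4 siRNA and 101 after control siRNA and a log2 ratio of -0.11. Its interval of the fold ran from 0.675 to 1.24. All 3 lay between the limits, also after centring on 3' GC. The centred log2 ratios were 0.48 for FDFT1, 0.39 for SQLE and -0.21 for LSS.

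After lanosterol the ratios spread again. CYP51A1, the P450 enzyme that demethylates lanosterol, had 151 counts after ADGRF4 siRNA and 478 after control siRNA. It was 2.70-fold lower (2.24 to 3.26), the lowest ratio among the 31 genes, and lay at percentile 5.10 of all compared symbols. MSMO1 and NSDHL act in turn on the methyl groups that remain. MSMO1, the oxidase, had 290 counts after ADGRF4 siRNA and 326 after control siRNA (1.04-fold, 0.888 to 1.23). NSDHL, the decarboxylating dehydrogenase, had 712 counts after ADGRF4 siRNA and 391 after control siRNA and was 2.14-fold higher (1.89 to 2.42). Its log2 ratio of 1.07 was the highest of the 31 genes and lay at percentile 94 of all compared symbols. HSD17B7, the keto reductase that works beside them, had 56 and 36 counts in the ADGRF4 siRNA and control siRNA libraries and was 1.82-fold higher (1.18 to 2.86).

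TM7SF2 and LBR both reduce a ring double bond left by CYP51A1, and only LBR passed the limit. TM7SF2 had 580 counts after ADGRF4 siRNA and 553 after control siRNA, a log2 ratio of 0.29, or -0.42 when centred on 3' GC. LBR, which is also a lamin B receptor of the nuclear envelope, stood at 510 counts after ADGRF4 siRNA and 1016 after control siRNA, 1.70-fold lower (1.53 to 1.89). The last steps were level or lower. The isomerase EBP had 1170 counts after ADGRF4 siRNA and 1515 after control siRNA (log2 ratio -0.14), and DHCR7, the final reductase of one branch, had 249 counts after ADGRF4 siRNA and 375 after control siRNA (log2 ratio -0.35). For the desaturase SC5D, 41 counts after ADGRF4 siRNA stood against 80 after control siRNA, 1.66-fold lower (1.13 to 2.49). Of these 12 genes from FDFT1 onwards, 2 were higher (16.7%), 3 lower (25%) and 7 between. Of all compared symbols, 21.1% were higher and 22.3% lower. The summed level of the 12 genes was 613 CPM after ADGRF4 siRNA and 626 CPM after control siRNA.

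**Figure D2:**
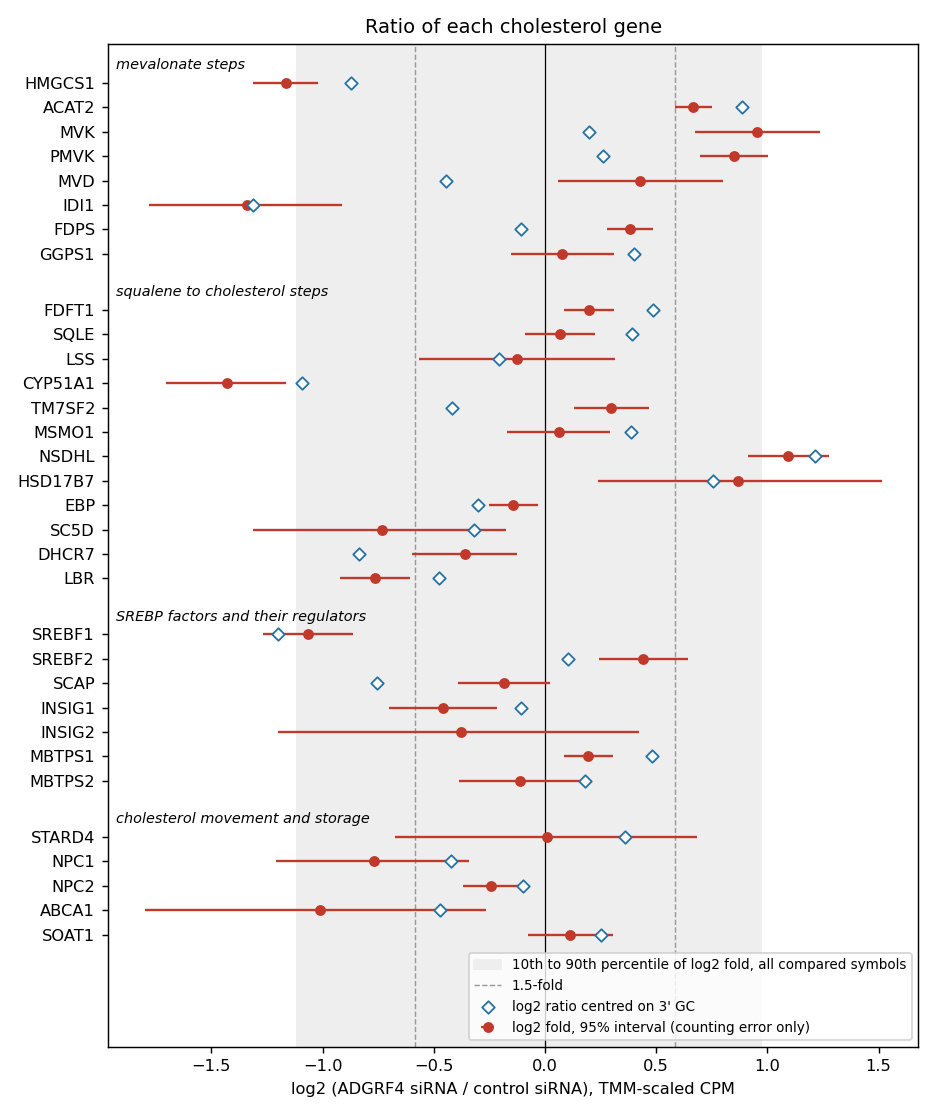
Log2 fold of ADGRF4 siRNA over control siRNA for each gene (filled, with the exact 95% interval for counting error; 31 compared genes and INSIG2) and the log2 ratio centred on 3' GC content (diamonds, on the CPM + 1 scale). Grey marks the 10th to 90th percentile of the log2 fold of all compared symbols (-1.11 to 0.97), and dashed lines mark 1.5-fold. The filled points of HMGCS1, IDI1 and CYP51A1 lie left of the grey band and that of NSDHL right of it, while SREBF1, ABCA1 and MVK lie inside it.

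The 2 SREBP genes differed in opposite directions, and only SREBF1 passed the limit. SREBF1, whose product mainly drives genes of fatty acid synthesis, had 284 counts after ADGRF4 siRNA and 697 after control siRNA and was 2.09-fold lower (1.82 to 2.41). SREBF2, whose product mainly drives genes of cholesterol synthesis, had 447 counts after ADGRF4 siRNA and 386 after control siRNA, a fold of 1.36 (1.18 to 1.56). The intervals of the 2 genes, which cover counting error only, did not overlap. They do not cover reads of RAI1, which overlaps the last exon of SREBF1 on the other strand. After centring on 3' GC, the log2 ratio was 0.10 for SREBF2 and -1.20 for SREBF1. Among the proteins that move and cut SREBPs, SCAP had 342 counts after ADGRF4 siRNA and 456 after control siRNA (log2 ratio -0.18). The Golgi protease gene MBTPS1 had 1361 counts after ADGRF4 siRNA and 1394 after control siRNA (log2 ratio 0.19), and MBTPS2 had 201 after ADGRF4 siRNA and 255 after control siRNA (log2 ratio -0.11). INSIG1, a retention factor that is itself an SREBP target, had 226 counts after ADGRF4 siRNA and 364 after control siRNA, 1.37-fold lower (1.16 to 1.63), which did not pass the limit. Its paralog INSIG2 had 23 counts after ADGRF4 siRNA and 35 after control siRNA, under the count limit, and its interval of the fold ran from 0.435 to 1.34. Of the 6 genes compared in this group, 1 was lower (16.7%) and 0 higher, beside 22.3% lower and 21.1% higher of all compared symbols.

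Genes that move or store cholesterol were level or lower. ABCA1, the LXR target that exports cholesterol, had 22 counts after ADGRF4 siRNA and 52 after control siRNA and was 2.02-fold lower (1.2 to 3.48). NPC1, which releases cholesterol from lysosomes, gave 69 counts after ADGRF4 siRNA and 138 after control siRNA, 1.71-fold lower (1.27 to 2.31). Its soluble partner NPC2 had 879 counts after ADGRF4 siRNA and 1221 after control siRNA (1.18-fold lower, 1.08 to 1.29), between the limits. SOAT1, which esterifies cholesterol for storage, had 440 counts after ADGRF4 siRNA and 477 after control siRNA and a log2 ratio of 0.11. The sterol carrier STARD4 had 36 counts after ADGRF4 siRNA and 42 after control siRNA and a log2 ratio of 0.01. Of these 5 genes, 2 were lower (40%) and 0 higher, beside 22.3% lower and 21.1% higher of all compared symbols. After centring on 3' GC, 0 of the 5 passed the limit.

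The sequence upstream of the start was set beside these values, because SREBPs act there together with the factor NF-Y. Below are the 250 bases before the RefSeq start (GRCh38.p14) of SREBF2, of HMGCS1 and CYP51A1, which were lower, and of NSDHL and MVK, which were higher. Capitals mark a form of the sterol regulatory element, TCACNCCAC, the same without its last base, TCACNCCA, the E-box CACGTG and the NF-Y box CCAAT, each on either strand. Where the table has several starts, the most upstream is shown. SREBF2 is at chr22:41832855-41833104 (plus strand), HMGCS1 at chr5:43313413-43313662 (minus strand), CYP51A1 at chr7:92134478-92134727 (minus strand), NSDHL at chrX:152830813-152831062 (plus strand) and MVK at chr12:109573544-109573793 (plus strand).
SREBF2: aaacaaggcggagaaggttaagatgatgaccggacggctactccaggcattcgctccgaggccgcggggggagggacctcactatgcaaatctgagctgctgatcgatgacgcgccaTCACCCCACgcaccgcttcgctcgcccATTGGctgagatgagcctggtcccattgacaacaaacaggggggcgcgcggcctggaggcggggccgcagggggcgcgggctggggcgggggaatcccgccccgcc
HMGCS1: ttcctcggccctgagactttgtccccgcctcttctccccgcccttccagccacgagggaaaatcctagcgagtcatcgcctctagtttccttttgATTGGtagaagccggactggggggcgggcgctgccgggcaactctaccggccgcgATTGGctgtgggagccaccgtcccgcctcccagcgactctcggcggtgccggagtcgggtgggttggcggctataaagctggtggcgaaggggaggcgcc
CYP51A1: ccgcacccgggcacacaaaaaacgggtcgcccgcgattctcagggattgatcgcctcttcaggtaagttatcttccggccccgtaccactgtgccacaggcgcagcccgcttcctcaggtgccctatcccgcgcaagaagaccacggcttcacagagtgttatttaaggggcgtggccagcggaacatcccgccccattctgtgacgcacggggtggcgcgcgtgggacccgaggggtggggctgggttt
NSDHL: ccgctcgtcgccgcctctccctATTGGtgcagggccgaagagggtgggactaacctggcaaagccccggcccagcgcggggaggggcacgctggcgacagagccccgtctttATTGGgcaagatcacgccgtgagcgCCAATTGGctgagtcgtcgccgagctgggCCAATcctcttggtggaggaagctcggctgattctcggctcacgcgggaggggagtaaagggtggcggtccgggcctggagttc
MVK: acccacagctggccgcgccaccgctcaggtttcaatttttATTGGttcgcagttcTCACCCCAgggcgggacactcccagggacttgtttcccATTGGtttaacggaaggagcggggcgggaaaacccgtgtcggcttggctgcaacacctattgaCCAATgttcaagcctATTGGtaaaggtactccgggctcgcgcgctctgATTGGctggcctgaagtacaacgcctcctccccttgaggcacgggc

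The window of SREBF2 held TCACNCCAC, starting 133 bases before the gene start, with a CCAAT box 106 bases before it. NSDHL and MVK, both higher, held 5 CCAAT boxes each, 2 of those in NSDHL overlapping as CCAATTGG. MVK also held TCACNCCA. HMGCS1 held 2 CCAAT boxes, and CYP51A1, the gene with the lowest ratio, held none of the 4 motifs. Box number did not follow direction in other genes. PMVK, also higher, held 0 CCAAT boxes, and IDI1, which was lower, held up to 3 in a window. A window was found for 29 of the 32 genes. TCACNCCAC was in 1 of these 29 and in 1.21% of 8788 compared symbols with a window. TCACNCCA, which it contains, was in 3 of the 29 (MVK, MSMO1 and SREBF2) and in 3.91% of the 8788. CACGTG was in 4 of the 29 (SC5D, SCAP, INSIG1 and ABCA1) and in 11.4% of the 8788. CCAAT was in 19 of the 29 (65.5%) and in 41.9% of the 8788. The GC box GGGCGG, not in capitals above, was in 25 of the 29 (86.2%) and in 75.5% of the 8788. Among the genes with a window, CCAAT was found in 3 of the 4 that were higher, in 3 of the 8 that were lower and in 13 of the 16 between. A match of letters is not a bound site, and these windows were not measured in the study. Only these exact letters were searched, so a window without a match can still hold another form of the element.

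Some of these counts can hold reads of other genes. ACAT2 and TCP1, a chaperonin subunit, overlap in their last exons on opposite strands. TCP1 had 2791 counts after ADGRF4 siRNA and 2266 after control siRNA, where ACAT2 had 2731 after ADGRF4 siRNA and 2017 after control siRNA. RUSC1-AS1 overlaps the last exon of FDPS on the other strand and had 1625 counts after ADGRF4 siRNA and 1449 after control siRNA, where FDPS had 1624 after ADGRF4 siRNA and 1461 after control siRNA. Use of strand in counting is not given in the sources used here, and the reads of such pairs cannot be told apart without it. MMAB, which overlaps MVK, had 756 counts after ADGRF4 siRNA and 527 after control siRNA (log2 ratio 0.74). RAI1, which overlaps the last exon of SREBF1, had 260 after ADGRF4 siRNA and 399 after control siRNA (-0.38). C18orf8, which overlaps NPC1, had 40 after ADGRF4 siRNA and 90 after control siRNA (-0.80). ISCA2, which overlaps NPC2, had 170 after ADGRF4 siRNA and 212 after control siRNA (-0.08). MMAB, RAI1, C18orf8 and ISCA2 had the sign of the gene they overlap. SOD2, which overlaps ACAT2 (-0.27), and ARID4B, which overlaps GGPS1 (-0.15), had the opposite sign. The last exons of HMGCS1 and LSS are overlapped by AC114947.2 and AP001468.1, for which no counts are listed. IDI2-AS1, which overlaps IDI1, had 5 counts after ADGRF4 siRNA and 0 after control siRNA. CYP51A1-AS1, which overlaps CYP51A1, had 0 in both. HSD17B7P2, a pseudogene of HSD17B7, had 48 counts after ADGRF4 siRNA and 29 after control siRNA, beside 56 after ADGRF4 siRNA and 36 after control siRNA for HSD17B7. The pseudogene FDPSP2 had 156 counts after ADGRF4 siRNA and 323 after control siRNA, with a log2 ratio of -0.78 where FDPS had 0.38. Of the 32 genes, 17 had no named pseudogene and no exon overlapped on the other strand in GENCODE 29. Of the 16 of these that were compared, 2 were higher and 3 lower, beside 21.1% and 22.3% of all compared symbols. NSDHL, higher at 2-fold, was among the 17, and HMGCS1, IDI1, CYP51A1 and SREBF1, lower at 2-fold, were not.

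The ratio also followed the base composition of the 3' end across all compared symbols, with Pearson's r of 0.44 over 11520 symbols that share the same 2 libraries. Over the 31 cholesterol genes r was 0.29, and the part of base composition in their differences was not tested. In the third of symbols with the lowest 3' GC content, 0 of 13 cholesterol genes were higher and 5 were lower (38.5%), against 5.34% and 32.5% of 3840 symbols. Among the 6 with middling 3' GC content, 3 were higher (50%) and 1 lower (16.7%), against 13.3% and 25.1% of 3840 symbols. In the third with the highest, 2 of 12 were higher (16.7%) and 2 lower (16.7%), against 44.3% and 10.1% of 3840. When ratios were centred on the median of symbols with like 3' GC content, 3 cholesterol genes were higher and 6 lower, against 15.1% and 19.2% of all symbols centred. The ratios of NSDHL (1.22), ACAT2 (0.89) and HSD17B7 (0.76) on one side, and of IDI1 (-1.31), SREBF1 (-1.20), CYP51A1 (-1.09) and HMGCS1 (-0.87) on the other, stayed past the limit. MVK (0.20) and PMVK (0.26), whose 3' ends are GC-rich, no longer passed it. LBR (-0.48), ABCA1 (-0.47), NPC1 (-0.42) and SC5D (-0.32), whose 3' ends are AT-rich, did not either. DHCR7 (-0.84) and SCAP (-0.76) passed it only after centring.

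**Figure D3:**
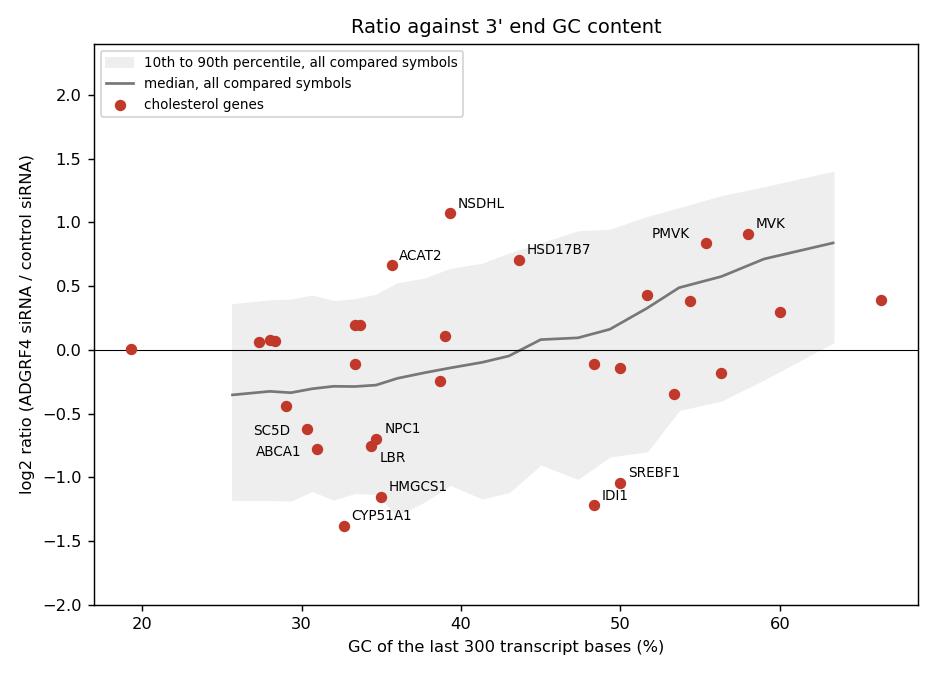
Log2 ratio of ADGRF4 siRNA over control siRNA against 3' GC content, taken over 300 bases, for the 31 compared cholesterol genes (points, with names for those past 1.5-fold) and for all compared symbols (line, median; grey, 10th to 90th percentile in 20 bins). NSDHL and ACAT2 (3' GC of 39.3% and 35.7%) lie above the grey band, IDI1 (48.3%), SREBF1 and CYP51A1 (32.7%) lie below it and HMGCS1 lies at its lower edge, while MVK and PMVK lie near the line.

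Related pathways around these genes were mixed as well. In 6 other lists, 13 of the 74 genes compared (17.6%) passed the limit as higher and 20 (27%) as lower, beside 21.1% and 22.3% of all compared symbols, 41 lay between, and the median log2 ratio was -0.032. With library totals, 6 were higher and 24 lower. Among 15 fatty acid targets of SREBP, 5 were lower (33.3%, beside 22.3% of all compared symbols) and 0 higher (beside 21.1%). MID1IP1, which stimulates acetyl-CoA carboxylase, was 2.88-fold lower (2.27 to 3.69), the desaturase FADS2 2.24-fold lower (2.02 to 2.49), GPAM, an acyltransferase of glycerolipid synthesis, 2.18-fold lower (1.38 to 3.54) and the desaturase SCD 1.93-fold lower (1.84 to 2.04). FASN, fatty acid synthase, had 2377 counts after ADGRF4 siRNA and 2083 after control siRNA, between the limits at a log2 ratio of 0.42. The median of the 15 was -0.051, against -0.016 for all compared symbols. After centring on 3' GC, the median of the 15 was 0.15, and 4 were lower and 0 higher. Of all symbols centred, 19.2% were lower and 15.1% higher.

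The machinery that degrades sterol-regulated proteins gave 4 lower (26.7%) and 2 higher (13.3%) among 15, beside 22.3% and 21.1% of all compared symbols. ERLIN1, an endoplasmic reticulum scaffold protein, had 51 counts after ADGRF4 siRNA and 302 after control siRNA and was 5.05-fold lower (3.74 to 6.93). The ubiquitin ligase SYVN1 was 2.61-fold lower, and the conjugating enzyme UBE2J2 was 1.81-fold higher. Among 8 LXR genes, 2 were lower and 2 higher (25% each), near the same background. The receptor gene NR1H3 was 1.63-fold higher and its partner RXRB 1.64-fold higher, whereas the LXR target LPCAT3 was 1.53-fold lower. After centring on 3' GC, UBE2J2 (0.51), NR1H3 (0.20) and RXRB (0.11) did not pass the limit.

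Genes that use isoprenoids gave 5 lower (33.3%) and 3 higher (20%) among 15, beside 22.3% and 21.1% of all compared symbols. TRIT1, which puts an isopentenyl group on transfer RNA, had 21 counts after ADGRF4 siRNA and 154 after control siRNA and was 6.25-fold lower (3.95 to 10.4). PGGT1B, a subunit of a prenyl transferase, had 11 counts after ADGRF4 siRNA and 61 after control siRNA and was 4.73-fold lower (2.47 to 9.96). NUS1, a subunit of the dolichol synthase, had 24 counts after ADGRF4 siRNA and 108 after control siRNA and was 3.84-fold lower. COQ2 of coenzyme Q synthesis was 2.72-fold lower. With a mean of at least 100 counts required, 1 gene of this list was lower and 3 were higher, against 1788 and 1983 of all symbols. Genes of sterol transfer and ester turnover gave 5 higher (27.8%) and 4 lower (22.2%) among 18, beside 21.1% and 22.3%. STARD10, a phospholipid carrier, and GRAMD1A, a sterol carrier, were 2.56-fold and 1.97-fold higher, and the lysosomal lipase LIPA and GRAMD1B were 2.28-fold and 2.13-fold lower. With 3' GC centred, the ratios of STARD10 (0.31) and GRAMD1A (0.13) did not pass the limit. Of 8 genes of sterol oxidation, 3 were compared. HSD3B7, of bile acid synthesis, was 1.79-fold higher (0.24 on the log2 scale after centring), and EPHX2 and SULT2B1 lay between the limits at 0.47 and 0.57, or -0.37 and -0.27 after centring.

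**Figure D4:**
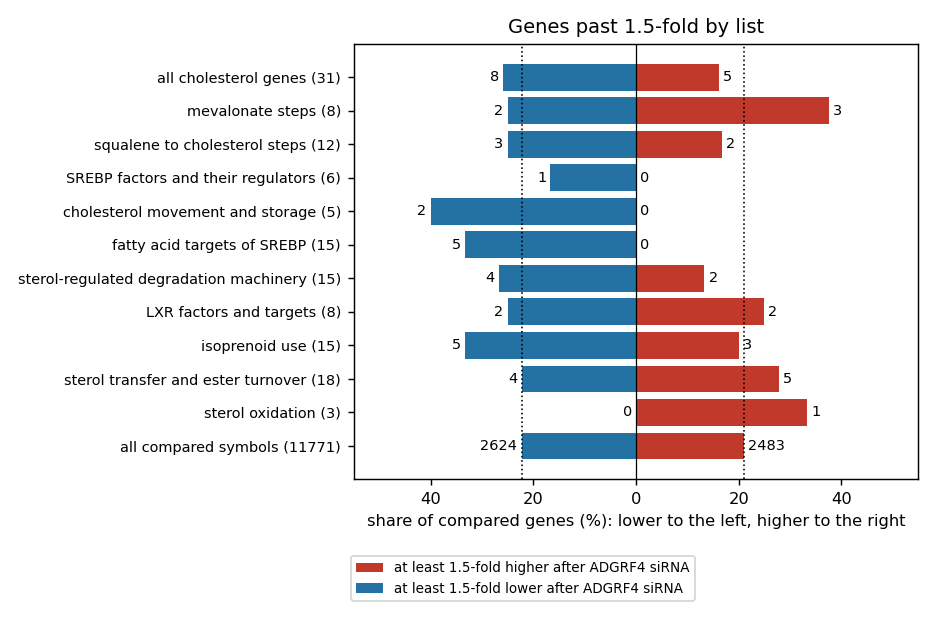
Share of compared genes at least 1.5-fold higher (right) and lower (left) after ADGRF4 siRNA, by list, with the number of compared genes in brackets, the gene counts at the bar ends and dotted lines at the shares of all compared symbols (21.1% higher, 22.3% lower). The bars of the cholesterol genes together (5 higher, 8 lower among 31) end near the dotted lines.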

How the data were processed

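Messenger RNA 3' ends were counted in 2 libraries from A549 cells, made with the Lexogen QuantSeq kit from Trizol-extracted RNA, per the labels' protocols. For each symbol the authors deposited a raw count. Bowtie2, edgeR and hg19 are named in the submitters' processing notes; their roles and versions, the annotation, the strand setting and the handling of multi-mapping reads were not given in the sources used here. Genes and lists were chosen with earlier results of these data known.

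Rows of 1 symbol were summed (286 symbols, none of them a cholesterol gene). TMM scaling used edgeR 4.0.16 (R 4.3.3). Ratios were log2 of CPM + 1, which understates low genes, where the mean count was 30 or more. Intervals of folds are Clopper-Pearson. Reads carry no molecular identifiers, so intervals cover counting error only. All 32 genes were named, and of each other list up to 4 genes with the largest absolute ratio, with FASN, TCP1 and the other overlapping genes added after their values were seen; 2 genes that this rule names are not reported here. The 3' GC content was that of the last 300 bases of the longest GENCODE 29 transcript (GRCh38), found for 97.9% of compared symbols, in 20 bins. Promoter windows came from RefSeq. Ratios and intervals were tested on simulated counts with counting error only, so variation between cultures was not covered. The tools were scipy 1.17.1, pandas 2.3.3 and numpy 2.4.6 under Python 3.11.15.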

Additional observations from a re-analysis of the deposited data

How the results depend on the processing

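With 1 library per treatment, no replicate could be left out. No paired analysis was possible because each group has 1 sample. DESeq2 1.42.0 size factors, upper-quartile scaling and a pseudocount of 0.1 CPM kept all 13 calls of single cholesterol genes and added none. Removing the count limit or keeping only the fullest row of a symbol did so too. The count limits and the choice of row could not change a cholesterol gene's ratio, because scaling was kept and each gene is on 1 row. Scaling by library totals lowers the log2 ratios and moves the median compared symbol to -0.16; ACAT2 then missed the limit, INSIG1 passed it as lower, and of the other pathway genes 6 instead of 13 were higher. A pseudocount of 5 CPM left 5 cholesterol genes lower, losing SC5D, NPC1 and ABCA1, and HSD17B7 was lost among the higher. Centring on 3' GC content left 3 higher cholesterol genes and 8 higher genes of the other lists; the cause was not tested. At 2-fold, 1 cholesterol gene was higher and 4 lower, 1 gene of the other lists was higher and 12 lower, and 923 and 1219 of all compared symbols were higher and lower. At a mean of at least 100 counts, 26 cholesterol genes remained and kept all 10 calls they had. The lower genes of isoprenoid use fell from 5 to 1 at that limit. HMGCS1, IDI1, CYP51A1, SREBF1 and NSDHL kept their call under all 9 other settings of scaling, pseudocount, count limit, 3' GC and rows. Of these, the settings of count limit and rows could not alter a call. No called cholesterol gene changed sign. The sums without ACAT2 and FDPS were added after seeing the data. Depth limits INSIG2, STARD4, ABCA1, HSD17B7 and SC5D, whose intervals are wide.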

Other observations

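The genes below were picked after their values were seen, and no test was made. ERLIN2, the paralog that forms a complex with ERLIN1, had 189 counts after ADGRF4 siRNA and 191 after control siRNA, while ERLIN1 had 51 after ADGRF4 siRNA and 302 after control siRNA. STARD4-AS1, an antisense RNA that overlaps STARD4, had 3 counts after ADGRF4 siRNA and 31 after control siRNA, under the limit for a comparison, while STARD4 had 36 after ADGRF4 siRNA and 42 after control siRNA. SCARB1, which takes up cholesterol esters from lipoproteins, had 523 counts after ADGRF4 siRNA and 1095 after control siRNA, and its log2 ratio was -0.82, or -1.66 after centring on 3' GC content.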
